A study of Mus musculus with 6 samples.

Results

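Ribosome footprints of 10 oocyte genes were followed through meiotic maturation in mouse oocytes. The genes were 5 transcription factors, Nobox, Figla, Sohlh1, Lhx8 and Tbpl2, and 5 homeobox genes of the Obox family, Obox1, Obox2, Obox3, Obox5 and Obox6. They were taken by name from the 22416 genes of the deposited table, and all 10 were found there. The measurement was Ribo-lite, a ribosome profiling method for few cells that sequences the mRNA fragments a ribosome protects from nuclease. All oocytes came from wild-type C57BL/6 females aged 4 weeks that had received 5 IU of PMSG, a gonadotropin that stimulates follicle growth, and were collected 44 h later at the germinal vesicle stage. The groups were WT_FGO, fully grown oocytes at that stage (n = 2 libraries), WT_MII, control oocytes matured in culture to metaphase II (n = 2), and Treat_MII, metaphase II oocytes matured with a treatment (n = 2). The study's text gives the treatment as BYBX, a ligand that stabilizes RNA G-quadruplexes, with DMSO as the control, while the labels say only that the group was treated. The study reports that BYBX lowered the rate of polar body release, which marks arrival at metaphase II, and that spindles were abnormal. Whether the treated libraries held only oocytes with a polar body is not given in the sources used here. Each library pooled 500 oocytes, nothing in the labels ties a library to separate animals, and p-values therefore measure the spread between libraries, which may be technical.

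NOBOX and LHX8 are homeobox proteins, and FIGLA and SOHLH1 are basic helix-loop-helix proteins. These factors switch on the genes of the growing oocyte, among them those of the zona pellucida and of oocyte growth factors, and their loss blocks the early follicle. TBPL2 is a relative of the TATA-binding protein that takes its place at oocyte promoters together with TFIIA. The fully grown oocyte no longer transcribes its genes, so that later changes in protein synthesis draw on stored mRNA. OBOX proteins are homeobox factors of the PRD-like kind whose genes form a cluster on mouse chromosome 7. Maternal OBOX proteins take part in the onset of transcription in the 2-cell embryo.

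The Obox genes are close copies of each other, which bears on every Obox value because a footprint is short. On GRCm38, the assembly also called mm10, Obox1 was annotated at chr7:15388948-15556866, Obox2 at chr7:15388721-15398545 and Obox5 at chr7:15750131-15759800, all on the plus strand. Obox3 lay at chr7:15479825-15639902 and Obox6 at chr7:15833241-15839678, both on the minus strand. The annotated span of Obox1 thus covers most of Obox2, and the coding exons of both lie on the same strand. Nobox and Figla are on chromosome 6 (chr6:43303674-43309554 and chr6:86016171-86020996), Sohlh1 and Tbpl2 on chromosome 2 (chr2:25842995-25847248 and chr2:24071721-24096595), and Lhx8 on chromosome 3 (chr3:154306294-154330659).

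The second coding exon of the 3 abundant Obox genes is shown because it holds the start of the homeobox, the DNA-binding part, and shows how little sequence separates these genes. It was read from the GENCODE transcripts of GRCm38, at chr7:15555505-15555704 for Obox1, chr7:15397188-15397386 for Obox2 and chr7:15757879-15758078 for Obox5. Capitals mark bases that differ from Obox1 at the aligned position.
Obox1: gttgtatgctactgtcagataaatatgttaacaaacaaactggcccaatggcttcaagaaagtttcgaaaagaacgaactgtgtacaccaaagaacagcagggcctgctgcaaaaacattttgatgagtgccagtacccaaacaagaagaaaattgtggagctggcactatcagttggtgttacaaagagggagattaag
Obox2: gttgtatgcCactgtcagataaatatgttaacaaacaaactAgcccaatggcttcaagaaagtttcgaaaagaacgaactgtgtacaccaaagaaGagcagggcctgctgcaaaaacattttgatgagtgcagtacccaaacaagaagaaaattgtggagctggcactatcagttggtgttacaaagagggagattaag
Obox5: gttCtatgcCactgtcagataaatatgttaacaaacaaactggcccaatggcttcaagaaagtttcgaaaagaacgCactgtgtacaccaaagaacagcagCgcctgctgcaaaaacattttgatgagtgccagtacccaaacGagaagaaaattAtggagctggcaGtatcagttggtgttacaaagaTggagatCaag

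In this exon Obox2 differed from Obox1 at 3 bases and Obox5 at 9. Obox2 also lacked 1 base of Obox1, aligned at position 131 counted from the first base of the exon, so that its exon had 199 coding bases and those of Obox1 and Obox5 had 200. After the missing base the annotated frame of Obox2 ran on for 37 bases of the next exon, against 195 in Obox1. The annotated coding length was accordingly 453 bases for Obox2, 612 for Obox1 and 873 for Obox5. The conserved motif of the last homeobox helix was found in the annotated frames of Obox1, Obox3, Obox5 and Obox6. Counted from that motif, the homeobox was placed at codons 94 to 153 in Obox1, Obox3 and Obox5 and at codons 145 to 204 in Obox6. Its ends were not searched for separately. The motif was not found in the annotated frame of Obox2. Of the RNA that follows the annotated coding end of Obox2, 158 bases aligned to the rest of the Obox1 coding sequence and 157 of them were identical.

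Coding sequences were cut into all words of 28 bases, about the length of a footprint, and each word was searched in all annotated transcripts and on both strands of the genome. None of the words of the 5 factors occurred elsewhere, whereas 71.6% of those of Obox1, 68.8% of those of Obox2, 82.8% of those of Obox3 and 55.6% of those of Obox5 did. For Obox6 the share was 23.6%. The coding sequences of Obox1 and Obox2 were identical at 446 of 453 aligned bases (98.5%), and those of Obox1 and Obox5 at 585 of 612 (95.6%). How the authors placed reads that fit several of these genes is not given in the sources used here. All 60 values of the 10 genes corresponded to whole numbers of reads within 0.02 of a read, so reads were not split into fractions between copies. A single Obox value can thus contain reads of another copy or lack its own, and the sum over the 5 Obox genes was tested as a separate feature. The sum keeps part of this limit, since a shared footprint may have been counted for several copies or for none. It also leaves out Obox7, a further copy with 49.8% of its words shared.

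**Figure D1:**
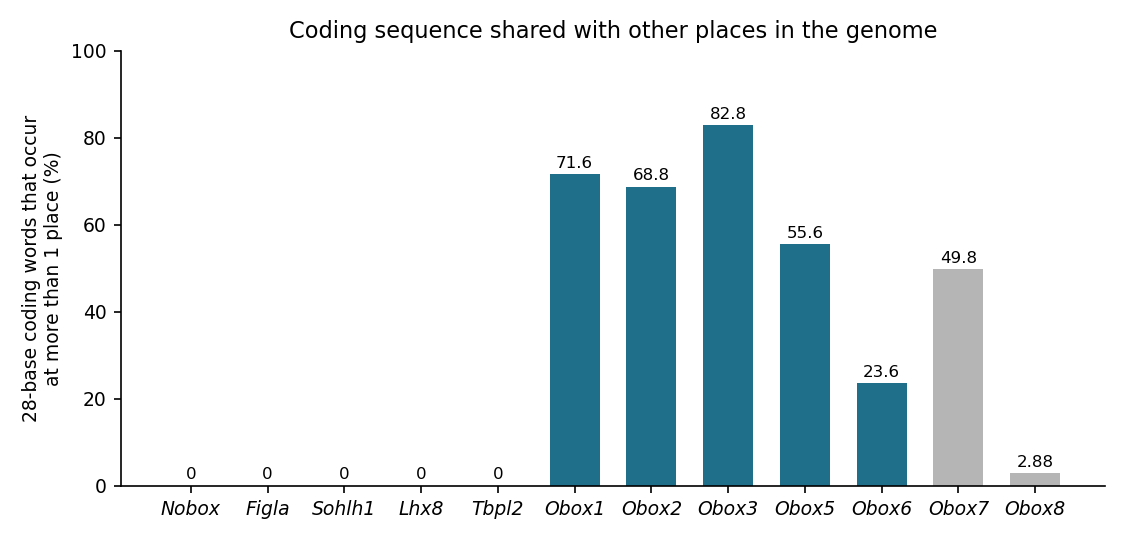
Share of the 28-base words of each coding sequence that also occur in another gene's transcript or at a second place in the genome (y axis, percent), for the 10 genes (blue) and for Obox7 and Obox8 (grey). The 5 factors are at 0%, and the 4 Obox genes from Obox1 to Obox5 lie between 55.6% and 82.8%.

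Values are FPKM, read fragments scaled to coding length and to the reads of the library, and n is the number of libraries. The reads behind them were recovered from the coding lengths. The libraries held 94309 to 331304 reads, with the fewest in WT_FGO, so that a single read in 1 kb was worth 10.6 FPKM in the shallowest library and 3.02 FPKM in the deepest. A count of 3 reads in a library was taken as the floor. Levels are shares of a library's reads, and with no mRNA measurement analysed here, fewer mRNA copies and fewer ribosomes per copy cannot be told apart. Of 8 oocyte markers, 7 or 8 were above 0 in every library (Dazl was at 0 in WT_FGO replicate 2), and their summed level was 27166 to 42569 FPKM in WT_FGO, 6494 to 7061 FPKM after control maturation and 11252 to 11329 FPKM after treatment. Of 14 granulosa and cumulus cell markers, 7 to 10 were above 0, and their summed levels were 879 and 1857 FPKM before maturation, 2246 and 425 FPKM after control maturation and 313 and 343 FPKM after treatment, and Tnfaip6 was at 0 throughout. The part of either in the results below was not tested. The oocyte markers Zp1, Zp2, Zp3, Gdf9 and Bmp15 are also among the dependent oocyte genes listed below, so their sum is not separate from that result. WT_MII replicate 1 stood apart: over the 2576 to 3190 better-covered genes of a pair, chi-square of read counts, divided by its degrees of freedom, was 8.78 between the 2 WT_MII libraries, 4.54 and 4.17 between WT_MII replicate 2 and the treated libraries, and 12.05 and 11.2 between WT_MII replicate 1 and the treated libraries.

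The factors and the Obox genes that were called went opposite ways when control oocytes matured. Footprints of Nobox and Lhx8 fell and those of Obox1, Obox2 and Obox5 rose (limma, adjusted p under 0.05). Of the 10 genes, 8 reached the mean of 1 FPKM needed for the test, and the exceptions were Sohlh1 and Obox3. Over all 15127 genes tested, 3.67% were called higher and 3.09% lower, against 3 and 2 of the 8 genes here. The 10 genes were chosen with earlier results of these data known, so these shares are a description only.

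**Figure D2:**
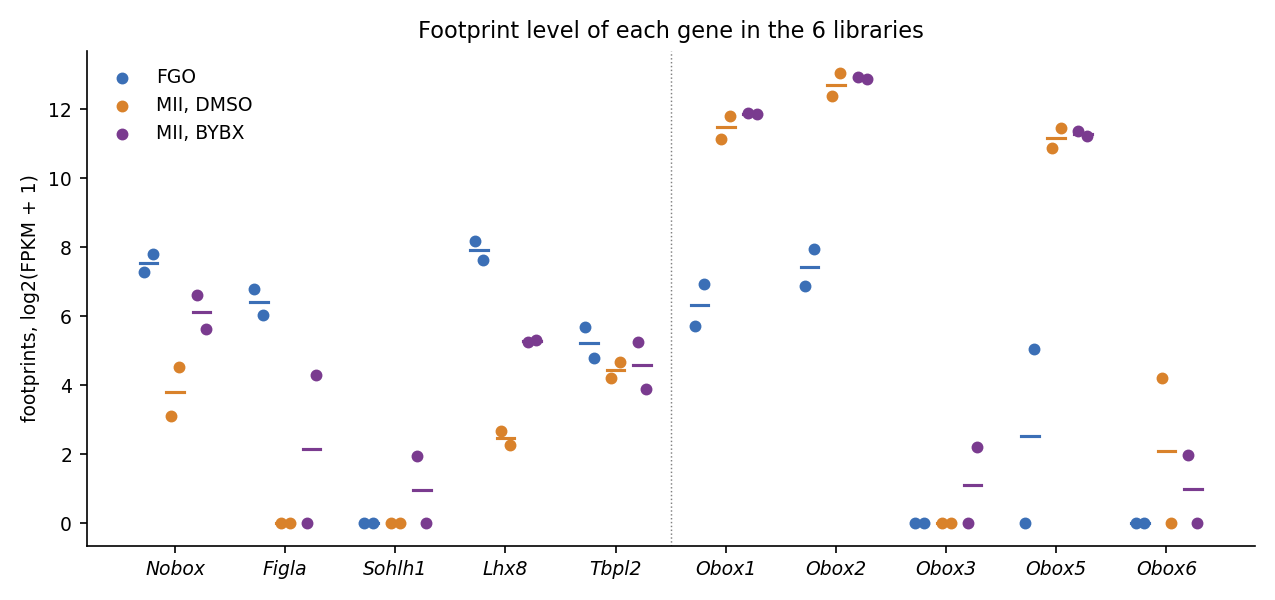
Footprint level of each gene in the 6 libraries (y axis, log2 of FPKM + 1), with a point per library and a bar at the group mean. Nobox, Figla and Lhx8 are highest in fully grown oocytes (FGO), Obox1, Obox2 and Obox5 in both metaphase II groups, and Sohlh1, Obox3 and Obox6 are at 0 in most libraries, Obox6 reaching 17.5 FPKM in 1 WT_MII library.

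Lhx8, a LIM homeobox gene, had 291 and 198 FPKM (31 and 24 reads) in WT_FGO and 5.36 and 3.83 FPKM (1 read each) in WT_MII. Both metaphase II control libraries lay below both libraries of fully grown oocytes, at or under the floor. The level fell from 244 ± 65.6 FPKM (SD, n = 2) to 4.59 ± 1.08 FPKM (SD, n = 2), a difference of −5.44 ± 0.50 (SE) in log2(FPKM + 1) with an adjusted p of 0.00428 (limma). From pooled reads the rate was 54.0 times lower, with a 95% interval of 14.3 to 457 that covers counting error only.

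Nobox had 154 and 224 FPKM (23 and 38 reads) in WT_FGO and 7.67 and 21.9 FPKM (2 and 8 reads) in WT_MII. Again both control libraries lay below both of the fully grown stage. The mean fell from 189 ± 49.4 FPKM (SD, n = 2) to 14.8 ± 10.1 FPKM (SD, n = 2), a difference of −3.73 ± 0.66 (SE) in log2(FPKM + 1) with an adjusted p of 0.0297 (limma). Figla, whose protein drives the zona pellucida genes, had 109 and 64.1 FPKM in WT_FGO, from only 6 and 4 reads, and was at 0 in both WT_MII libraries. Against a floor of 3 reads per library its mean level was at least 3.24-fold lower in WT_MII, but the fitted difference did not pass the test (limma, adjusted p = 0.0600).

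Tbpl2 had 50.5 and 26.6 FPKM (5 and 3 reads) in WT_FGO and 17.3 and 24.7 FPKM (3 and 6 reads) in WT_MII. The groups did not overlap, but the difference of −0.80 ± 0.71 (SE) in log2(FPKM + 1) did not pass the test (limma, adjusted p = 0.517), with a 95% interval from −2.52 to 0.93. All 4 tested factors thus had both control libraries below both of the fully grown stage, as had 25.8% of all genes tested. Sohlh1, which acts early in oocyte growth, had a single read in 1 Treat_MII library and none in the other 5 libraries.

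Among the Obox genes, Obox2 had the highest level per length in every library. It had 117 and 247 FPKM (5 and 12 reads) in WT_FGO and 5312 and 8442 FPKM (397 and 883 reads) in WT_MII, and ranked 15 and 8 among all genes in the latter. Both control metaphase II libraries were far above both libraries of fully grown oocytes. The mean rose from 182 ± 91.9 FPKM (SD, n = 2) to 6877 ± 2213 FPKM (SD, n = 2), a difference of 5.29 ± 0.39 (SE) in log2(FPKM + 1) with an adjusted p of 0.00233 (limma).

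Obox1 had 52.0 and 122 FPKM (3 and 8 reads) in WT_FGO and 2248 and 3588 FPKM (227 and 507 reads) in WT_MII. Its difference was 5.14 ± 0.44 (SE) in log2(FPKM + 1) with an adjusted p of 0.00327 (limma), and the groups did not overlap. Obox5 had 0 and 32.04 FPKM (0 and 3 reads) in WT_FGO and 1889 and 2818 FPKM (272 and 568 reads) in WT_MII. Its fitted difference of 8.65 ± 1.48 (SE) in log2(FPKM + 1) passed the test (limma, adjusted p = 0.0269) but rests on 3 reads before maturation. From pooled reads the ratio was 143, with a 95% counting interval of 48.6 to 693. Leaving out WT_FGO replicate 1 moved the difference to 6.13 and leaving out WT_FGO replicate 2 to 11.17. Footprints on 3 of the 4 tested Obox genes thus rose, and 68.6% of the coding words of Obox1, 68.1% of those of Obox2 and 49.1% of those of Obox5 occur in transcripts of other Obox genes.

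Obox3 and Obox6 had at most 3 reads in a library. Obox6 had 3 reads in 1 WT_MII library (17.5 FPKM), 1 read in 1 Treat_MII library (2.90 FPKM) and none elsewhere, and its difference with maturation was not called (limma, adjusted p = 0.490). Obox3 had 1 read, in Treat_MII. The share of all tested genes with both WT_MII libraries above both of WT_FGO was 15.3%, against 3 of the 4 tested Obox genes.

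As a family, the 5 Obox genes took 0.00848% and 0.0214% of the reads of the WT_FGO libraries, with 95% Wilson intervals of 0.00430% to 0.0167% and 0.0143% to 0.0322%. In WT_MII they took 0.545% (0.511% to 0.582%) and 0.848% (0.811% to 0.886%). The shares within WT_MII differed beyond these counting intervals, and both lay above the intervals of the fully grown stage. The summed level rose from 285 ± 164 FPKM (SD, n = 2) to 12157 ± 3804 FPKM (SD, n = 2), a difference of 5.50 ± 0.42 (SE) in log2(FPKM + 1) with an adjusted p of 0.00265 (limma).

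**Figure D3:**
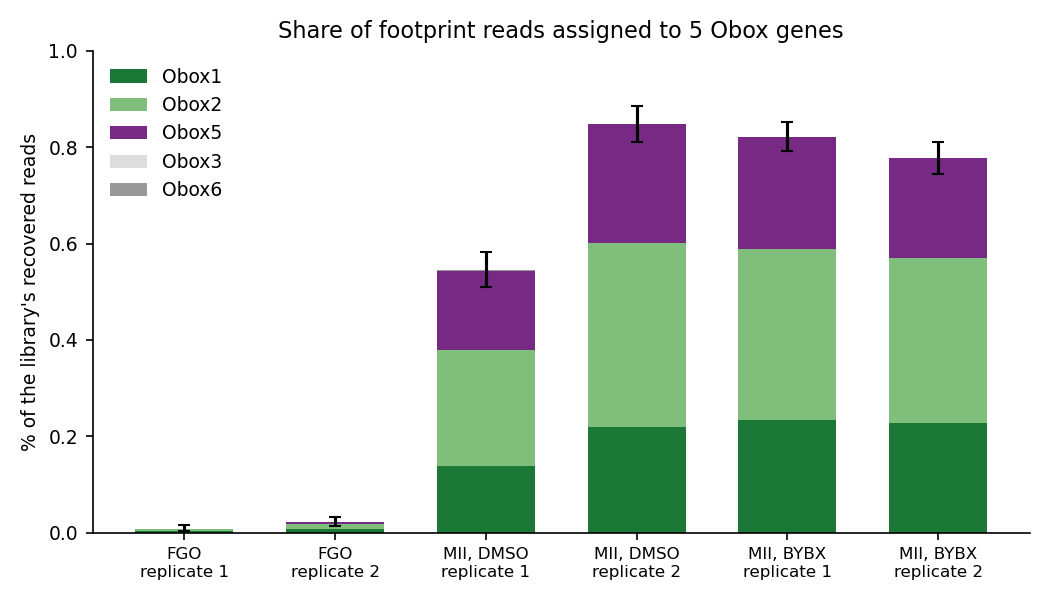
Share of each library's recovered reads that were assigned to the 5 Obox genes (y axis, percent), stacked by gene, with the 95% Wilson interval of the total. The 2 libraries of fully grown oocytes are at 0.00848% and 0.0214%, and the 4 metaphase II libraries lie between 0.545% and 0.848%, made up of Obox1, Obox2 and Obox5.

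In FPKM the order within the family was the same in all 4 metaphase II libraries: Obox2 first, then Obox1, then Obox5. In reads, which do not allow for length, Obox5 was above Obox1 in both WT_MII libraries (272 against 227 and 568 against 507). Obox2 stood at 2.04 to 2.36 times the FPKM of Obox1 in these libraries and at 2.25 and 2.03 times in WT_FGO. In reads the ratio was 1.51 to 1.75 in metaphase II libraries, the rest of the FPKM ratio being the shorter annotated coding length of Obox2. Obox1 and Obox5 were closer, at 2248 to 3812 FPKM and 1889 to 2818 FPKM over the 4 libraries, and these ranges overlap, though Obox1 was above Obox5 in FPKM within each of these libraries. Obox7, a copy outside the 10 genes that is 96.0% identical to Obox5 over 654 coding bases, had 48.6 and 0 FPKM at the fully grown stage, 352 and 583 FPKM in control and 300.0 and 322 FPKM in treated metaphase II oocytes. Its difference with maturation did not pass the test (6.01 ± 1.66 (SE) in log2(FPKM + 1), limma, adjusted p = 0.0941). Obox7 was called higher, however, without WT_FGO replicate 1 (8.83, adjusted p = 0.00559), without WT_FGO replicate 2 (3.19, 0.0425), and with vooma (0.0412) or voom weights (0.00156), which weight each value by its expected precision.

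These calls depend on the libraries that set the spread. With WT_FGO and WT_MII fitted alone, limma called none of the 15127 genes with maturation (3443 had an unadjusted p under 0.05 with all libraries), and the adjusted p rose to 0.174 for Nobox, 0.116 for Lhx8, 0.126 for Obox1, 0.124 for Obox2, 0.211 for Obox5 and 0.133 for the sum, at unchanged differences. Leaving out either Treat_MII library also ended all maturation calls, with adjusted p from 0.104 to 0.174. Without WT_MII replicate 1, Obox2 (0.0436) and Lhx8 (0.0153) stayed called, and Obox1 (0.0547), Obox5 (0.199), Nobox (0.123) and the sum (0.0530) did not. Without WT_MII replicate 2, Lhx8 alone stayed called (0.0175), Obox2 moving to 0.0526, and without either WT_FGO library Nobox was lost (0.119 and 0.152).

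Treated and control metaphase II oocytes were compared next. None of the 8 tested genes passed the test, nor did any of the 15127 genes (0% called in either direction by limma), where 882 had an unadjusted p under 0.05. Nobox and Lhx8 were 2 of these 882. With 1 library left out of a group, the lone library being assumed to vary like the others, limma called 17 genes higher and 347 lower without WT_MII replicate 1, 31 and 387 without WT_MII replicate 2, 363 and 0 without Treat_MII replicate 1, and 398 and 0 without Treat_MII replicate 2, with none of the 10 genes among them. Treat_MII and WT_FGO are both compared with the same WT_MII libraries, so these differences are not independent of those with maturation.

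**Figure D4:**
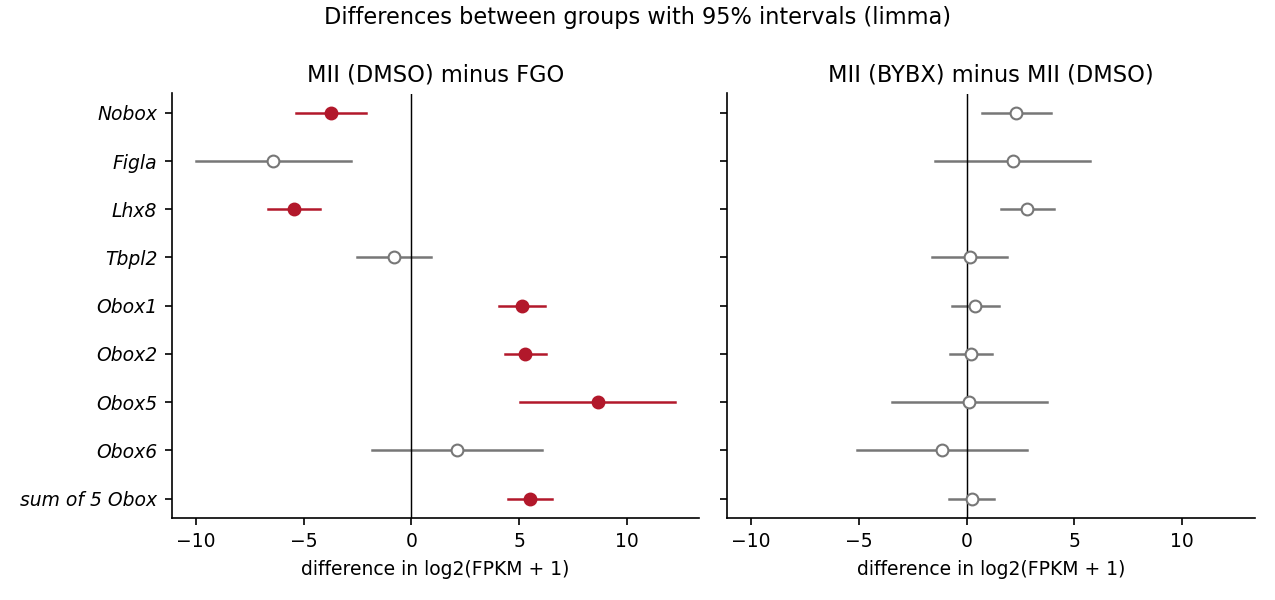
Differences in log2(FPKM + 1) with 95% intervals from limma for the 8 tested genes and the sum of the 5 Obox genes, for control maturation (left) and for treatment against control at metaphase II (right). Filled red points have an adjusted p under 0.05. With maturation Nobox and Lhx8 lie below 0 and Obox1, Obox2, Obox5 and the sum above, and with treatment no point is filled.

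Lhx8 had 37.4 and 38.5 FPKM (14 and 12 reads) in Treat_MII, above both control libraries and below both libraries of fully grown oocytes. The difference from WT_MII was 2.81 ± 0.50 (SE) in log2(FPKM + 1), with an unadjusted p of 0.00132 and an adjusted p of 0.514 (limma). From pooled reads the rate was 8.48 times that of the control, with a 95% counting interval of 2.12 to 73.7, since the control had 2 reads in all. Nobox had 97.4 and 48.2 FPKM (51 and 21 reads) in Treat_MII, again above both control libraries. Without WT_MII replicate 1 the differences were 3.01 for Lhx8 and 1.602 for Nobox, again not called (limma, adjusted p = 0.106 and 0.651). With all libraries the Nobox difference was 2.30 ± 0.66 (SE) in log2(FPKM + 1), with an unadjusted p of 0.0126 and an adjusted p of 0.753 (limma). Both treated libraries were above both controls for 3 of the 8 tested genes, Nobox, Lhx8 and Obox1, and below for none, against 16.2% and 15.6% of all genes tested.

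Figla had 0 and 18.7 FPKM (0 and 3 reads) in Treat_MII and was at 0 in WT_MII, and both groups are at or under the floor, so no fold is given. Tbpl2 had 37.4 and 13.8 FPKM (13 and 4 reads) in Treat_MII, on both sides of the control values of 17.3 and 24.7 FPKM. The treated level of Tbpl2 thus overlapped the control.

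No difference in the Obox genes between treated and control oocytes was detectable with these libraries. Obox1 had 3812 and 3705 FPKM in Treat_MII, Obox2 had 7849 and 7561 FPKM and Obox5 had 2662 and 2373 FPKM. For Obox2 and Obox5 the treated values lay between the 2 control values, and for Obox1 just above the higher of them. The summed difference was 0.24 ± 0.42 (SE) in log2(FPKM + 1), with a 95% interval from −0.80 to 1.27, that is from 0.575-fold to 2.42-fold, and an adjusted p of 1 (limma). The 2 treated libraries gave the family 0.822% (0.791% to 0.853%) and 0.777% (0.745% to 0.810%) of their reads. The lowest share of the 4 metaphase II libraries was that of WT_MII replicate 1 (0.545%), which also had the highest granulosa and cumulus marker sum. A link between the share and the marker sum was not tested. Without WT_MII replicate 1 the summed Obox difference was −0.09 in log2(FPKM + 1).

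Against fully grown oocytes, treated metaphase II oocytes had the same 3 Obox genes called higher, and Lhx8 was called lower. Over all genes tested 2.86% were called higher and 1% lower in this comparison. The differences in log2(FPKM + 1) were 5.54 ± 0.44 (SE) for Obox1, 5.49 ± 0.39 (SE) for Obox2 and 8.77 ± 1.48 (SE) for Obox5 (limma, adjusted p = 0.00302, 0.00236 and 0.0346). Lhx8 differed by −2.63 ± 0.50 (SE) with an adjusted p of 0.0492 (limma), which 11 of 17 alternative settings moved past 0.05. Nobox, at 72.8 ± 34.8 FPKM (SD, n = 2) after treatment against 189 ± 49.4 FPKM (SD, n = 2) before maturation, was not called (−1.43 ± 0.66 (SE), limma, adjusted p = 0.303). Without either WT_MII or either Treat_MII library no member was called in this comparison, with adjusted p of 0.0664 to 0.315 for Obox1, Obox2 and Obox5 and of 0.0700 to 0.167 for Lhx8.

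Sequence elements of the mRNAs were set beside these values. A G-quadruplex motif was taken as 4 G-runs, each 3 or more bases long, separated by 1 to 7 bases, on the sense strand of the longest coding transcript. No member held it in the 5′ UTR, the coding sequence or the 3′ UTR, while 6.92%, 4.502% and 10.5% of 14881 tested genes did. At shares this low, absence from 10 genes is not unusual. The motif was not compared with the RNA G-quadruplexes that the study mapped by sequencing. The second element was TTTTAT or TTTTAAT in the last 100 bases of the 3′ UTR, the DNA form of the site that CPEB1 binds, a protein that acts on the poly(A) tails of stored mRNAs in the maturing oocyte. TTTTAT was found there in Obox1 and Obox2 but not in Obox5 or in any of the 5 factors, and 18.7% of 13657 genes with a 3′ UTR of that length held an element. The polyadenylation hexamer AATAAA or ATTAAA was present in the same window of all members but Tbpl2, as in 79.4% of those genes.

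A stretch of 30 bases near the 3′ end is shown because Obox1 and Obox2 hold the element there and Obox5 does not. Footprints of Obox1, Obox2 and Obox5 all rose with maturation, and a part of the element in this was not tested. Obox8, a copy not shown here, held TTTTAT in the last 100 bases of its 3′ UTR. Obox8 had no reads in WT_FGO or WT_MII and 2 reads in Treat_MII replicate 1. It was thus under the floor in every library, so its response to maturation cannot be read. The stretch shown starts 60 bases before the end of the transcript, or 58 in Obox7, and is on the sense strand. It comes from the GENCODE transcripts of GRCm38 and has TTTTAT in capitals.
Obox1: aattTTTTATtgttagagtatatgttcatt
Obox2: aattTTTTATtgttagagtatatgttcatt
Obox5: atcatataatagaaaaacaataaatctgat
Obox7: ttttTTTTATtgttagagaatatgttcatt
Lhx8: acactctagtttacaaagcctaccatccta

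The stretches of Obox1 and Obox2 were identical, and that of Obox7 differed in few bases. In Obox1 and Obox2 TTTTAT began at 100 and again at 56 bases before the end of the transcript, and the stretch shows the latter. The polyadenylation hexamer nearest to the end began 29 bases before the end of the transcript. A match of these letters is a description of the sequence and not a measured binding site.

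Genes around the factors and the Obox family were counted in 5 lists. The lists were chosen with earlier results of these data known, so their counts cannot show an enrichment over all genes. Partners and general initiation genes numbered 13 tested of 14, and 1 rose with maturation and none fell (3.67% and 3.09% over all genes). The list's median difference was 0.95 in log2(FPKM + 1), beside −0.44 over all genes tested. The gene that rose was Gtf2a1, which encodes the large TFIIA subunit that works with TBPL2 at oocyte promoters. It had 0 and 8.22 FPKM (0 and 1 read) in WT_FGO and 139 and 149 FPKM (26 and 39 reads) in WT_MII (5.58 ± 1.02 (SE) in log2(FPKM + 1), limma, adjusted p = 0.0330). The call held in 9 of 17 alternatives and was lost without either WT_MII library (0.203 and 0.200) and without either Treat_MII library (0.173), while without WT_FGO replicate 1 the difference was 3.97 and without WT_FGO replicate 2 it was 7.18. With treatment no gene of this list was called (median 0.43, beside 0 over all genes), and the most abundant of them, Taf7 and Gtf2b, had differences of 0.03 ± 0.31 (SE) and 0.32 ± 0.43 (SE).

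All 21 listed oocyte genes that depend on these factors or on the oocyte initiation complex were tested, and they split in 2 directions. With maturation 10 fell and 5 rose (limma, adjusted p under 0.05), where 3.09% of all genes tested fell and 3.67% rose. These shares are a description only, given how the list was chosen. The median difference was −1.74 in log2(FPKM + 1), beside −0.44 over all genes tested. The 4 largest falls were those of Bmp15, an oocyte growth factor (−3.81 ± 0.37 (SE), limma, adjusted p = 0.00498), Zp3, a zona pellucida glycoprotein (−3.53 ± 0.31 (SE), adjusted p = 0.00338), Npm2, an oocyte nucleoplasmin (−3.37 ± 0.28 (SE), adjusted p = 0.00321), and Oas1h (−3.08 ± 0.40 (SE), adjusted p = 0.0118). The 4 largest rises were those of Oosp1, an oocyte-secreted protein (6.43 ± 0.25 (SE), limma, adjusted p = 0.000604), Mos, the kinase upstream of MAPK in meiosis (4.96 ± 0.34 (SE), adjusted p = 0.00194), Rfpl4 (4.72 ± 0.19 (SE), adjusted p = 0.000604) and H1f8, the oocyte linker histone (2.43 ± 0.18 (SE), adjusted p = 0.00226). Zp3 fell from 5966 ± 2550 FPKM (SD, n = 2) to 492 ± 7.78 FPKM (SD, n = 2), and Oosp1 rose from 154 ± 43.9 FPKM (SD, n = 2) to 13146 ± 2663 FPKM (SD, n = 2). Without either Treat_MII library, or with the compared groups alone, no gene of this list was called with maturation. Without WT_MII replicate 1 the number that fell was 4, and without WT_MII replicate 2 it was 3.

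With treatment none of these 21 genes was called. Their median difference was 0.76 in log2(FPKM + 1), beside 0 over all genes tested, and 14 had both treated libraries above both controls (16.2% of all genes tested). With voom weights on recovered reads 7 of them were called higher, namely Zp2, Zp3, Bmp15, Npm2, Padi6, Nlrp5 and Nlrp14, and Oog1 was called higher when either Treat_MII library was left out. The most abundant, Oosp1 and H1f8, had differences of 0.18 ± 0.25 (SE) and −0.19 ± 0.18 (SE). H1f8 was not among the genes whose reads could be recovered as whole numbers.

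**Figure D5:**
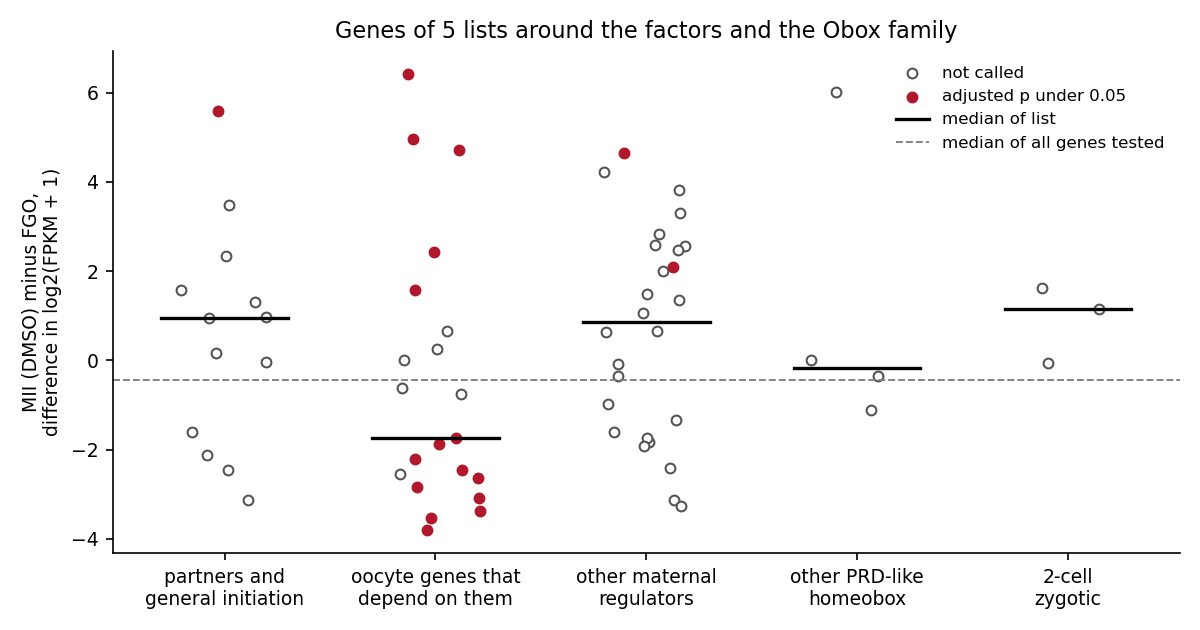
Difference in log2(FPKM + 1) between control metaphase II and fully grown oocytes (y axis) for each tested gene of 5 lists, with filled points for an adjusted p under 0.05, a bar at each list's median and a dashed line at the median over all genes tested (−0.44). The list of dependent oocyte genes holds 10 called falls and 5 called rises, and the other lists hold 3 called rises in all.

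Among 29 other maternal or early-embryo transcription regulators, 26 were tested, and 2 rose and none fell with maturation (3.67% and 3.09% over all genes). The median difference was 0.85 in log2(FPKM + 1), beside −0.44 over all genes tested. Zfp57, a zinc-finger protein that maintains imprints, had 210 and 133 FPKM in WT_FGO and 706 and 713 FPKM in WT_MII (2.08 ± 0.30 (SE) in log2(FPKM + 1), limma, adjusted p = 0.0157). Nfyc, a subunit of the CCAAT-binding factor NF-Y, was at 0 in both WT_FGO libraries and had 12.1 and 47.4 FPKM in WT_MII, from 2 and 11 reads (limma, adjusted p = 0.0442). With centring on the median log2 ratio 5 genes of this list were called, and with a replicate block Zfp57 alone. With treatment none was called, and Zfp57 and Stat3 had differences of 0.51 ± 0.30 (SE) and 0.41 ± 0.53 (SE).

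Of 13 other PRD-like homeobox genes, 9 were in the table and 4 reached the mean for the test, with none called in either comparison before alternatives were applied. Changes under alternatives are given for Obox7 above and for Obox8 in the closing section. Obox7 had the highest mean, and Otx1 followed with 9 reads in all libraries together. Of 11 zygotic genes of the 2-cell stage, which OBOX and DUX proteins are known to act on, 10 were in the table and 3 were tested, with none called, although Tcstv3 was called when WT_MII replicate 1 was left out. The 2 with the highest means, Tcstv1 and Tcstv3, had 6 reads and 1 read in all. Footprints of this list were thus at the level of single reads in fully grown and metaphase II oocytes alike.

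Other genes with a like pattern were ranked by Pearson correlation of log2(FPKM + 1) over the 6 libraries, among 2112 genes averaging 50 FPKM or more. For Lhx8, the factor with the highest mean (95.6 FPKM), they were Sec22b, a vesicle-transport SNARE (r = 0.998), Fbxw26, an F-box gene (r = 0.997), and Padi6, a gene of the subcortical maternal complex (r = 0.995). For Obox2 they were Bcl2l10, a BCL2 relative of the oocyte (r = 0.9997), Nuf2, a kinetochore subunit (r = 0.999), and E330034G19Rik (r = 0.999). The 6 points share the 3 groups and their depths, and 531 of the 2112 genes (25.1%) had r over 0.9 with Obox2 and 243 (11.5%) with Lhx8, so the ranking is a description only. Group means of Bcl2l10 were 297 FPKM at the fully grown stage, 11393 FPKM in control and 13017 FPKM in treated metaphase II oocytes, and those of Fbxw26, in the same order, were 759, 12.7 and 115 FPKM.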

How the data were processed

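The deposited table held FPKM values per gene and library, which the authors made from trimmed reads on mm10. The submitters' notes name cutadapt 1.14, Bowtie2 2.2.2 and STAR 2.5.3a, while the counting program, the annotation and the handling of reads with several placements are not given in the sources used here. From 22442 entries, 26 with a repeated name were left out. FPKM times the union coding length of GENCODE release M21 gave whole reads within 0.02 in all libraries for 98.4% of 21937 genes. Library reads were 94309 and 107251 (WT_FGO), 164972 and 230907 (WT_MII) and 331304 and 275604 (Treat_MII). Intervals and floors cover counting error only.

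Genes averaging 1 FPKM or more were tested on log2(FPKM + 1) with limma 3.58.1 in R 4.3.3 (lmFit, eBayes with trend), all 6 libraries in 1 fit with 3 groups, and p-values were adjusted by Benjamini-Hochberg over 15127 genes. The added 1 FPKM shrinks differences of low genes, but a library at 0 within a group can enlarge them. Obox5 was fitted at 8.65 in log2(FPKM + 1) with maturation, beside a 147-fold ratio of mean FPKM. Replicate numbers were not taken as pairs. The alternatives are named with their effects in the closing section, and voom weights on recovered reads were added after seeing the data. All 10 genes were named. From each list and for each of the comparisons with WT_MII, up to 4 genes a direction were named by the largest change among those called with a mean of at least 10 FPKM, or the 2 with the highest mean where none was called. The 10 genes, lists and rules were chosen with earlier results of these data known. Obox4, Tprx1, Tprx2, Dux and Zscan4a did not match a name of the table used here, H1foo, the older symbol of H1f8, was counted once under the newer name, and protein sequences were not used.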

Additional observations from a re-analysis of the deposited data

How the results depend on the processing

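Each value was recomputed with 17 alternatives. Those on the values were a smaller pseudocount (0.1), testing all genes without a filter, a stricter filter (5 FPKM), quantile normalization, median centring of log2 ratios and scaling to a common total. Those on the fit were a replicate block, no trend, vooma weights, voom weights on recovered reads, the compared groups alone, and leaving out each of the 6 libraries. The 10 genes are called members here. Where the compared groups were fitted alone the spread rests on 4 libraries, and the cause of other changes was not tested. The directions of the members called with maturation held in all 17. Calls held in 14 for Lhx8, 13 for Obox2, 12 for Obox1, 9 for Obox5 and 8 for Nobox. Figla was called in 3 (adjusted p = 0.0422 at a mean of 5 FPKM, 0.0230 with vooma, 0.0154 with voom).

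With maturation, 1 member was called lower with no filter and with no trend, and 0 were called higher and 0 lower with the compared groups alone. The summed Obox difference stayed at 5.50 but lost its call with no filter (adjusted p = 0.0746) and with the compared groups alone (0.133). With single libraries left out, 0 to 3 members were called higher and 0 to 1 lower, and the sum was 4.88 to 6.12. Over all genes the calls were 555 higher and 468 lower, against 758 and 305 with centring, 686 and 402 with quantile normalization, 642 and 707 with vooma, 662 and 1211 with voom, 349 and 187 with no filter and 188 and 140 with no trend. Centring moved the median of all genes from −0.44 to 0.02 and quantile normalization to −0.03.

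With treatment, no alternative fit called a member, and leaving out single libraries called 0. A rule of a 2-fold ratio of mean FPKM + 1, without a test, gave 3 members higher (Nobox, Lhx8 and Figla) and 1 lower (Obox6). Figla rests there on 3 reads in Treat_MII against 0 in WT_MII and Obox6 on 1 against 3, at or under the floor. Over all genes, 27 were called higher with no filter, and voom called 16 higher, 7 of them from the list of dependent oocyte genes, and 15 lower. Of the other lists, Obox8 was called higher without Treat_MII replicate 2, Dppa4 lower without WT_MII replicate 2 and Tcstv3 lower without WT_MII replicate 1. The sum was −0.087 to 0.56 with single libraries left out. Uncalled differences that changed sign were Obox2 at −0.087 with quantile normalization and, with single libraries left out, Obox2 at −0.13 to 0.54, Obox5 at −0.16 to 0.41, Obox6 at −3.23 to 0.98 and Tbpl2 at −0.55 to 0.82. Treated against fully grown oocytes, Tbpl2 was at −1.35 to 0.024 with single libraries left out.

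Treated against fully grown oocytes, 0 members were called lower with a pseudocount of 0.1, centring, quantile normalization, a common total, the replicate block, no trend or the compared groups alone, and 3 with voom or the 2-fold rule. Members called higher were 0 with no trend or the compared groups alone. The sum stayed at 5.74 but lost its call with no filter (adjusted p = 0.0733), no trend (0.0541) and the compared groups alone (0.0749). With single libraries left out, 0 to 3 were called higher and 0 to 1 lower, and the sum was 5.12 to 6.36.

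Same-numbered libraries did not deviate together (correlations of 0.0342, 0.0176 and 0.0189 over 2706 genes), so the numbers were not taken as pairs. With the replicate block 453 genes were called higher and 335 lower with maturation, and the same 5 members were called, Nobox at an adjusted p of 0.0397. The block ended the call of Lhx8 in treated against fully grown oocytes (−2.63, adjusted p = 0.0854) and that of Nfyc with maturation (0.0511). Depth limits the low genes: Figla, Sohlh1, Tbpl2, Obox3 and Obox6 rest on few reads.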
